A study of Homo sapiens with 4 samples.

Results

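Genes whose symbol is ZNF followed by digits and at most 1 letter were taken as the zinc finger (ZNF) genes and followed through 4 RNA-seq libraries. Of 561 such symbols in the count tables, 483 had a read in some library, and 310 reached at least 5 CPM (unscaled CPM, a gene's counts relative to its library's total) in at least 2 of the 4 libraries. These 310 are the members described here, out of 52402 different symbols in all. They were chosen by their level in these libraries, so their presence at these levels is no finding. Just inside the threshold, the second-highest unscaled CPM was 5.09 for ZNF658, 5.22 for ZNF738 and 5.28 for ZNF324B, and just outside it was 4.99 for ZNF555, 4.99 for ZNF782 and 4.94 for ZNF624.

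The libraries came from cultures labelled with the ovarian cancer lines OVCAR3 and SKOV3, and there was 1 library for each of 4 groups. In OVCAR3 KO and SKOV3 KO the env (envelope) gene of HERV-K119, one provirus among the human endogenous retroviruses of group HERV-K, had been knocked out by CRISPR-Cas9, and OVCAR3 mock and SKOV3 mock were the control cultures of the same line label. Hygromycin was given to all 4 cultures once transfected. Whether a knockout culture was a clone or a pool is not given in the sources used here, and the knockout itself was not checked at the RNA level. With 1 library per group no p-value is given within a line, and intervals cover counting error only.

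Most human ZNF proteins carry an array of C2H2 zinc fingers, small folds that each contact a few bases of DNA. Many also carry a KRAB domain, which recruits the corepressor TRIM28 (KAP1) and the histone methyltransferase SETDB1 and so silences the bound locus, often a retroelement. KRAB zinc finger genes arose by repeated tandem duplication and stand in clusters, most of them on chromosome 19.

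The library of OVCAR3 KO stood apart from the other libraries. Library totals ran between 15145483 and 22057693 counts, and mitochondrially encoded genes took 21.9% of counts in OVCAR3 KO, against 5.93% in OVCAR3 mock, 5.93% in SKOV3 KO and 5.16% in SKOV3 mock. The nuclear RNA NEAT1 stood at 1612 CPM in OVCAR3 KO and 142 CPM in OVCAR3 mock (here and for the markers below, CPM scaled by trimmed-mean, TMM, factors). Every OVCAR3 ratio below rests on that library, and the part of these shares in the ratios was not tested. The epithelial gene EPCAM stood between 268 and 352 CPM in the 4 libraries. The other 4 epithelial markers (KRT8, KRT18, KRT19 and CDH1) were all at least 2-fold lower in OVCAR3 KO, KRT8 with 704 CPM in OVCAR3 KO and 3035 CPM in OVCAR3 mock, and their part in the ZNF ratios was not tested. By contrast, the leukocyte genes PTPRC and CD3E had no count in any, which allows up to 0.198 unscaled CPM in the library with the lowest total. CDKN2A, known to be deleted in SKOV3, stood at 91.2 CPM in SKOV3 KO and 90.6 CPM in SKOV3 mock, and WT1, an ovarian serous marker, had no count in any library. MUC16 (CA125) stood at 6.18 CPM in OVCAR3 KO and 2.74 CPM in OVCAR3 mock, and below 0.1 CPM in both SKOV3 libraries. The line names are therefore used as labels of libraries.

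The members with the highest OVCAR3 ratios included neighbours on chromosome 7 and on chromosome 19 whose RefSeq promoters share a stretch of sequence, shown here because it runs through a group of genes that lay together at the high end. Promoter windows (GRCh38.p14, 250 bases before to 50 after the first listed start of a gene) were found for 262 of the 310 members. The last 100 bases before the start are printed 5′ to 3′ on the strand of the gene, and capitals mark CCAATCAG, a CCAAT box with its flank, and CCGGAAG, the core recognised by ETS factors, on either strand.
ZNF680: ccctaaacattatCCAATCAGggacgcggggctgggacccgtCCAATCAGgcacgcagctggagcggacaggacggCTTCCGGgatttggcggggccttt
ZNF107: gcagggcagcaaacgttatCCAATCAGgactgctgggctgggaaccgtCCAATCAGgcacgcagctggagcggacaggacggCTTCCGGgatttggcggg
ZNF138: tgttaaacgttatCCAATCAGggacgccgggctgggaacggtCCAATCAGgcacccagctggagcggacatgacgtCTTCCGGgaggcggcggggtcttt
ZNF92: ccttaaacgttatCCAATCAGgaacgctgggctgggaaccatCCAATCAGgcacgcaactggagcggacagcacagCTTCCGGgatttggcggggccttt
ZNF431: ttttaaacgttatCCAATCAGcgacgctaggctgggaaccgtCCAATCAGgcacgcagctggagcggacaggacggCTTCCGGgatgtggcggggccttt
ZNF708: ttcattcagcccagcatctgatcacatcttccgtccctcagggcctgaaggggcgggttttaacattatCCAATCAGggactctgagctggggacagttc
ZNF91: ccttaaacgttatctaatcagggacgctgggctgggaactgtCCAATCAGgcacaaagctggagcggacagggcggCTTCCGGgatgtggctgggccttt
ZNF519: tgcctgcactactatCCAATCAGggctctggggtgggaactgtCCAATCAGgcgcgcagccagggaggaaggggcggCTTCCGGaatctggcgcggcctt
ZNF296: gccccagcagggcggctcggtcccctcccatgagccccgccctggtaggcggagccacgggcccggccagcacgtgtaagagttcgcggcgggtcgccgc
ZNF574: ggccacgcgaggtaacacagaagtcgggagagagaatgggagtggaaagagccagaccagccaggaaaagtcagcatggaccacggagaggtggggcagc
The stretches lie at chr7:64563072-64563171 (minus strand), chr7:64666033-64666132, chr7:64794328-64794427 and chr7:65373755-65373854 (plus strand) for the chromosome 7 genes. Those of chromosome 19 lie at chr19:21141940-21142039 (plus), chr19:21329411-21329510 (minus) and chr19:23395472-23395571 (minus), and that of ZNF519 at chr18:14132436-14132535 (minus). The last pair, ZNF296 (chr19:45076479-45076578, minus) and ZNF574 (chr19:42068377-42068476, plus), belongs to genes at the low end and holds neither motif in this stretch. ZNF680, ZNF107, ZNF138, ZNF92, ZNF431 and ZNF519 held 2 copies of CCAATCAG and 1 of CCGGAAG each within these 100 bases, ZNF91 held 1 of each, and ZNF708 held 1 CCAATCAG. The printed genes are a selection. Among high neighbours not printed, ZNF273 (chromosome 7) and ZNF738 (chromosome 19) were not found with CCAATCAG, for lack of the motif or of a promoter window.

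Knockout over mock, the ZNF genes lay on the higher side in OVCAR3 while coding genes at large lay on the lower side. Their median log2 ratio was 0.34 (n = 310 genes, 25th to 75th percentile -0.29 to 0.85), against -0.14 for 10169 other protein-coding genes that passed the same level rule, and 203 of 310 members were above 0. At least 2-fold higher were 53 members and at least 2-fold lower 38, and the ratios ran from -3.23 to 2.51. Among all 10934 symbols under the same level rule, 7.25% were at least 2-fold higher and 19.3% at least 2-fold lower, and among the other coding genes 6.06% and 20.1%, so the higher members were more frequent than this background (17.1% of members) and the lower members less frequent (12.3%). The 95% counting interval of the ratio lay above 0 for 171 members and below 0 for 80, beside 36.8% and 45.9% of all symbols under the rule. Over all symbols with at least 1 CPM in a library of the pair, which adds genes of low level, 22.5% were higher and 15.4% lower. Scaling moved the split. With trimmed-mean (TMM) factors taken over all rows, the median of all genes under the rule shifted by -0.29 and the members split 29 higher and 47 lower. The members' median was 0.48 above that of other coding genes under each of the 5 scalings tried. A scaling factor moves all genes of a pair by nearly the same amount, so this difference could hardly change and is no check. Since these are bulk cultures, fewer cells of a type and less RNA per cell cannot be told apart.

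In SKOV3 the ratios were small. The median over the 310 members was 0.10 (25th to 75th percentile -0.03 to 0.25), against -0.0030 for other protein-coding genes, with 213 members above 0. The ratios ran from -0.50 to 0.83, and 0 members were 2-fold higher or lower, beside 0.0457% and 0.0549% of all symbols under the level rule, 0.0492% and 0.0197% of the other coding genes, and 0.799% and 0.739% of all symbols with at least 1 CPM in a library of the pair. Counting intervals lay above 0 for 84 members and below 0 for 17, beside 19.2% and 20.6% of all symbols.

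As a group the ZNF genes took 0.882% of all counts in OVCAR3 KO, against 0.770% in OVCAR3 mock, and 0.921% in SKOV3 KO, against 0.867% in SKOV3 mock. The median member stood at 18.4 CPM in OVCAR3 KO and 16.3 CPM in OVCAR3 mock, and at 18.6 CPM in SKOV3 KO and 16.6 CPM in SKOV3 mock. Gene levels in CPM, here and below, are scaled by TMM, as were those of the markers, while the level rule uses unscaled CPM. The median of other protein-coding genes was 33.1 CPM in OVCAR3 KO and 39.3 CPM in OVCAR3 mock. It was 39.3 CPM in SKOV3 KO and 38.8 CPM in SKOV3 mock. In all 4 libraries 266 members passed the level threshold, 31 passed in 3 and 13 in 2, and 5 of the last (ZNF519, ZNF738, ZNF417, ZNF224 and ZNF530) passed only through both knockout libraries, so the rule itself set them higher there in both lines. Among the 266 the OVCAR3 median was 0.36, with 40 higher and 28 lower, and the SKOV3 median was 0.08.

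The direction in one line did not carry over to the other. Above 0 in both lines were 141 members and below 0 in both 35, while 62 were above 0 in OVCAR3 and below 0 in SKOV3 and 72 the other way. Across the 310 genes the Spearman correlation of the ratios was 0.05, a description over genes of 4 libraries. No member passed 2-fold in both lines.

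**Figure D1:**
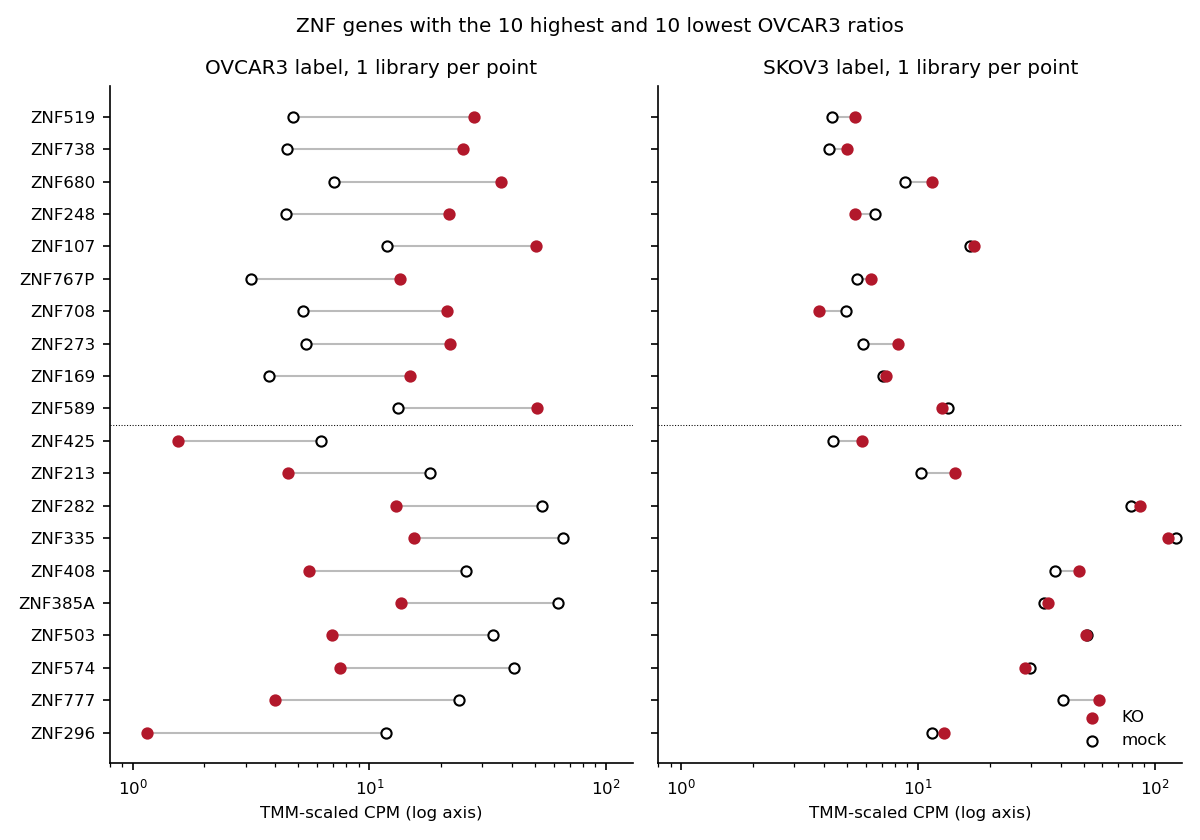
TMM-scaled CPM (log axis) of the 10 ZNF genes with the highest OVCAR3 log2 ratios (above the dotted line) and the 10 with the lowest (below it), with KO as filled and mock as open points, 1 library each. The points lie far apart in the OVCAR3 panel and close together in the SKOV3 panel, where ZNF777 is the widest of the lower 10 at 58.2 CPM in KO and 41.0 CPM in mock.

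At the high end stood KRAB zinc finger genes with few described functions. ZNF519 (chromosome 18, 14071121 to 14132435) had 27.6 CPM in OVCAR3 KO and 4.75 CPM in OVCAR3 mock, with 5.39 CPM in SKOV3 KO and 4.34 CPM in SKOV3 mock. Its log2 ratio was 2.51 (95% counting interval 2.19 to 2.91) in OVCAR3 and 0.31 (-0.12 to 0.75) in SKOV3, so only the OVCAR3 libraries differed beyond counting error. ZNF738, a KRAB gene of the chromosome 19 cluster in which no zinc finger was found in the longest coding transcript, had 24.8 CPM in OVCAR3 KO and 4.50 CPM in OVCAR3 mock, a ratio of 2.43 (2.10 to 2.84). ZNF519 and ZNF738 passed the level rule only through both knockout libraries, so the rule had set their direction. ZNF248 had 21.7 CPM in OVCAR3 KO against 4.44 CPM in OVCAR3 mock (2.26, 1.92 to 2.68), and in SKOV3 it stood at 5.39 CPM in KO and 6.55 CPM in mock, the opposite order. The other members of the highest 10 were ZNF680 (2.33), ZNF107 (2.08), the transcribed pseudogene ZNF767P (2.05), ZNF708 (2.00), ZNF273 (2.00), ZNF169 (1.95) and ZNF589 (1.93). Of these 10, 9 carried a KRAB match and ZNF767P is a pseudogene.

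The lowest 10 were of a different make. ZNF296 (chromosome 19, 45071500 to 45076478), known in mice as a transcription factor of embryonic stem cells, had 1.15 CPM in OVCAR3 KO and 11.8 CPM in OVCAR3 mock, a log2 ratio of -3.23 (-4.16 to -2.64). In SKOV3 it stood at 12.9 CPM in KO and 11.4 CPM in mock, so the OVCAR3 KO library alone was low. ZNF296 overlaps another coding gene, and how reads of the overlap were assigned is not given in the sources used here. ZNF777 had 4.005 CPM in OVCAR3 KO and 23.98 CPM in OVCAR3 mock (-2.55, -3.00 to -2.18), but in SKOV3 the knockout was the higher of the pair, at 58.2 CPM in KO against 41.0 CPM in mock (0.50, 0.37 to 0.64). ZNF574 had 7.53 CPM in OVCAR3 KO and 40.9 CPM in OVCAR3 mock (-2.42), and ZNF335, a subunit associated with histone H3K4 methyltransferase complexes, had 15.4 CPM in OVCAR3 KO and 65.6 CPM in OVCAR3 mock (-2.08). The remainder were ZNF503, a transcriptional repressor (-2.25), ZNF385A, an RNA-binding p53 cofactor (-2.20), ZNF408 (-2.18), ZNF282, named for binding a viral long terminal repeat (-2.04), ZNF213 (-1.95) and ZNF425 (-1.93). KRAB matches were found in 4 of the 10, and transcript GC content was between 60.3% and 68.1% in 9 of them and 53.7% in ZNF425.

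Of the 4 gene properties set against the OVCAR3 ratios, GC content went with them most closely, with a Spearman correlation of -0.66 beside 0.21 for transcript length, 0.20 for the number of zinc fingers and -0.06 for level. Members were split at the quintile bounds of all measured protein-coding genes, which were 40.6%, 45.2%, 51.2% and 58.1% GC. From the lowest to the highest GC group the members' median log2 ratio was 0.83 (n = 79), 0.62 (n = 85), 0.22 (n = 59), -0.25 (n = 37) and -0.96 (n = 50). Other protein-coding genes had medians of 0.43, 0.18, -0.23, -0.64 and -0.87 in the same groups. The ZNF genes thus lay above other coding genes in the 4 groups of lower GC content and not in the highest. At least 2-fold higher were 28, 16, 4, 3 and 2 members from the lowest to the highest group, and at least 2-fold lower were 0, 0, 3, 11 and 24. As shares of members these were 35.4%, 18.8%, 6.78%, 8.11% and 4% higher, and 0%, 0%, 5.08%, 29.7% and 48% lower. Of other coding genes in the same groups 12.8%, 6.03%, 4.43%, 3.41% and 3.23% were higher. The lower were 1.59%, 4.38%, 17.3%, 32.5% and 44.3%, so in the 4th and the highest group the members' lower share was near this background. Over 10152 other coding genes the correlation with GC content was -0.55. These are correlations across genes that share the same 2 libraries. In SKOV3 the correlation was 0.07 and the medians of the 5 groups were 0.12, 0.06, 0.10, 0.11 and 0.18.

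**Figure D2:**
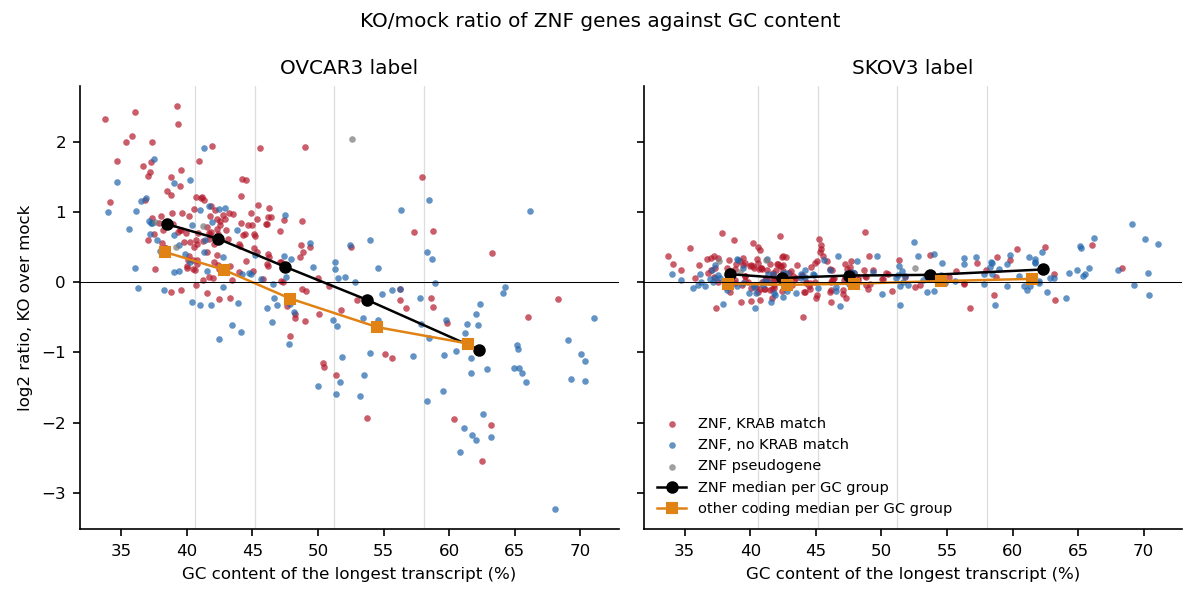
Log2 ratio of KO over mock against transcript GC content (%) for the 310 ZNF genes, coloured by KRAB match, with lines through the medians of the 5 GC groups for the ZNF genes (black circles) and for other protein-coding genes (orange squares); grey verticals mark the group bounds. In the OVCAR3 panel the ZNF medians run from 0.83 to -0.96 and lie above the other coding medians in the 4 groups of lower GC; in the SKOV3 panel both lines stay near 0.

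Removing the trend that protein-coding genes followed with GC content and transcript length reduced the spread and left the ZNF genes above the rest. The members' OVCAR3 median was then 0.26, against -0.13 for other coding genes, with 39 members at least 2-fold higher and 15 lower. In the lowest GC group the trend-removed median was 0.27 for members, against -0.13 for other coding genes, and in the highest it was -0.17 for both. In the 4th group the members' median turned from -0.25 to 0.35, against -0.14 for other coding genes with the trend removed. In SKOV3 the trend-removed medians were 0.10 for members and -0.01 for other coding genes.

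On chromosome 19 the ZNF genes and their neighbours lay on opposite sides of 0. The 120 members on chromosome 19 had a median OVCAR3 ratio of 0.42, with 88 above 0, 17 at least 2-fold higher and 11 lower, against -0.97 for the 603 other protein-coding genes of that chromosome. GC content differed between them, with a median of 43.2% in the members and 60.3% in the other genes. Of those other genes 1.82% were at least 2-fold higher and 49.1% lower. The 190 members elsewhere had a median of 0.29, with 36 higher and 27 lower, against -0.09 for other coding genes elsewhere. Of the other coding genes elsewhere 6.32% were higher and 18.3% lower. With the GC and length trend removed, the members' medians were 0.26 on chromosome 19 and 0.27 elsewhere, and those of other coding genes were -0.35 on chromosome 19 and -0.12 elsewhere. In SKOV3 the medians were 0.16 for members on chromosome 19 and 0.08 for members elsewhere, against 0.04 for other coding genes of chromosome 19.

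In OVCAR3 members with and without a KRAB domain lay further apart than members on and off chromosome 19. A KRAB match was found in 177 of the 306 protein-coding members, 97 of them on chromosome 19. KRAB members had a median of 0.60 (36 higher, 9 lower) and members without a match -0.11 (16 higher, 29 lower). As shares these were 20.3% higher and 5.08% lower with a match, and 12.4% and 22.5% without. Other coding genes under the level rule had a median of -0.14, with 6.06% higher and 20.1% lower. The median and the lower share of members without a match were thus near this background. The value was alike on and off chromosome 19, at 0.60 for the 97 KRAB members there (15 higher, 2 lower) and 0.57 for the 80 elsewhere (21 higher, 7 lower). The 23 members of chromosome 19 without a KRAB match stood at -0.71 (2 higher, 9 lower) and the 106 elsewhere at -0.04 (14 higher, 20 lower). The lower share was 39.1% of these 23, against 49.1% of other coding genes of chromosome 19. It was 18.9% of the 106, against 18.3% of other coding genes elsewhere. Median GC content was 42.8% in KRAB members and 51.1% in those without. Within the 2nd GC group KRAB members (n = 62) had a median of 0.68 and the others (n = 22) 0.26, and within the 3rd the medians were 0.29 (n = 42) and -0.23 (n = 17). In the lowest group they were 0.86 (n = 51) and 0.73 (n = 26). In the 4th group the order was the other way, with -0.31 for KRAB members (n = 12) and -0.20 for the others (n = 24), and in the highest it was -0.42 (n = 10) and -1.03 (n = 40). With the trend removed over all members they were 0.37 for KRAB and -0.0065 without. In the 4th group the trend-removed medians were 0.21 for KRAB members and 0.39 for the others, both now above 0. In the highest group they were 0.37 and -0.31. In SKOV3 the medians of KRAB members and of those without a match both stood at 0.10.

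**Figure D3:**
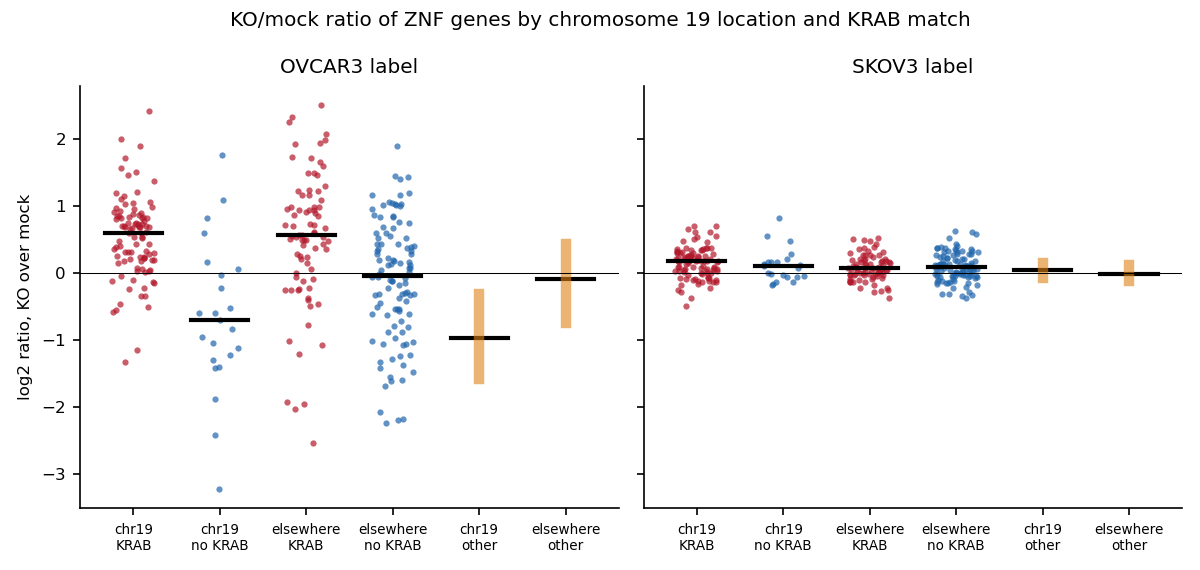
Log2 ratio of KO over mock of the 306 protein-coding ZNF genes by chromosome 19 location and KRAB match, 1 point per gene with the group median as a bar, and to their right the median and 25th to 75th percentile (orange) of other protein-coding genes on chromosome 19 and elsewhere. In the OVCAR3 panel the KRAB genes have medians of 0.60 on chromosome 19 and 0.57 elsewhere, against -0.97 for other genes of chromosome 19.

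Reads of near-identical copies can be split between genes, and 38 members shared over 5% of their 50-base windows with another zinc finger gene. Their median OVCAR3 ratio was 0.76, against 0.29 for the 272 that shared less, and in SKOV3 the medians were 0.09 and 0.11. The 59 members that overlap another coding gene had an OVCAR3 median of 0.14, against 0.40 for the 251 that overlap none. By chromosome, the 24 members on chromosome 16 had a median of -0.39 (2 higher, 7 lower), the 23 on chromosome 7 one of 0.36 (8 higher, 6 lower) and the 10 on chromosome 9 one of 0.81. On chromosome 16 the direction turned with the GC and length trend removed, to a median of 0.10 (3 higher, 1 lower) at a median GC content of 58.5%. Other named zinc finger families under the same level rule had OVCAR3 medians of 0.59 (9 ZFP genes), 0.10 (14 ZSCAN genes), -0.10 (6 ZKSCAN genes) and 0.08 (30 ZBTB genes). With the trend removed the 38 members stood at 0.42 and the 272 at 0.25, and the ZFP genes at 0.03.

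The group of members with few zinc fingers in the longest coding transcript had the lowest median OVCAR3 ratio. Members with 0 to 4 fingers had a median OVCAR3 ratio of -0.08 (n = 52), those with 5 to 9 had 0.25 (n = 92), those with 10 to 14 had 0.52 (n = 99) and those with 15 or more had 0.54 (n = 63). Their median GC contents were 51.5%, 46.5%, 44.0% and 42.05%, and with the GC and length trend removed the OVCAR3 medians were 0.014, 0.32, 0.30 and 0.26, with no increase beyond 5 to 9 fingers. In SKOV3 the medians were 0.07, 0.13, 0.07 and 0.12.

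The median ratio was lowest in the group of highest level in SKOV3, and in OVCAR3 once the GC and length trend was removed. Members were split into 3 groups of about equal size at mean levels of 11.7 and 24.4 CPM over the 4 libraries. The SKOV3 medians were 0.18 (n = 103), 0.14 (n = 104) and 0.03 (n = 103) from low to high, with a Spearman correlation of -0.29 across the 310 genes, and those of other coding genes between the same bounds were 0.06, 0.04 and -0.02. The OVCAR3 medians were 0.51, 0.23 and 0.35, with a correlation of -0.06, and those of other coding genes were -0.04, -0.10 and -0.17. With the trend removed the OVCAR3 medians of the members were 0.41, 0.25 and 0.048, and those of other coding genes 0.12, 0.04 and -0.22. Genes near the level threshold pass it more easily where they are higher, and the part of this in the low group was not tested.

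**Figure D4:**
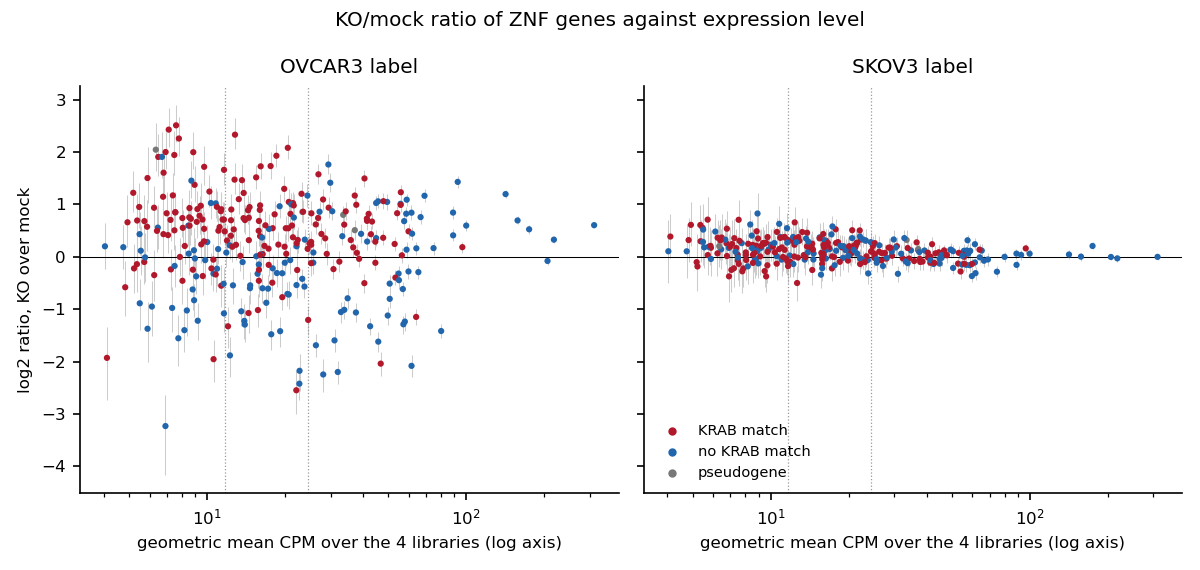
Log2 ratio of KO over mock against the geometric mean CPM over the 4 libraries (log axis) for the 310 ZNF genes, with the 95% counting interval of each as a grey line and dotted verticals at 11.7 and 24.4 CPM. The OVCAR3 ratios spread over several log2 units at every level, and the SKOV3 ratios stay between -0.50 and 0.83 and draw in towards 0 at high levels.

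The 5 most abundant members by mean CPM differed little in SKOV3. ZNF146, which consists almost wholly of fingers, had 385 CPM in OVCAR3 KO and 253 CPM in OVCAR3 mock, a log2 ratio of 0.61 (0.55 to 0.66), and 310 CPM in both SKOV3 libraries. ZNF24, a SCAN-domain repressor, had 224 CPM in OVCAR3 KO and 138 CPM in OVCAR3 mock (0.69, 0.62 to 0.77), and 141 CPM in both SKOV3 libraries. ZNF638, a nuclear protein linked to silencing of unintegrated retroviral DNA, had 191 CPM in OVCAR3 KO and 132 CPM in OVCAR3 mock (0.53), and 206 CPM in SKOV3 KO and 179 CPM in SKOV3 mock (0.21, 0.14 to 0.27). ZNF664 (0.33 in OVCAR3 and -0.03 in SKOV3) and ZNF770 (-0.08 and -0.0026) differed less between the OVCAR3 libraries. Their OVCAR3 ratios with the GC and length trend removed were 0.25 for ZNF146, 0.13 for ZNF24, 0.08 for ZNF638, 0.51 for ZNF664 and -0.70 for ZNF770. Per kilobase of transcript the mean levels were 83.3 CPM for ZNF146, 42.8 for ZNF664, 38.3 for ZNF770, 26.0 for ZNF638 and 21.7 for ZNF24.

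Neighbouring members often lay on one side. Members less than 1 Mb apart formed 14 clusters of at least 5. In the chromosome 7 cluster at 64499069 to 65401136 (GRCh38.p14) all 5 members were at least 2-fold higher in OVCAR3 KO, with a median of 2.00 (1.66 to 2.33) and a median GC content of 35.4%. There ZNF680 had 36.0 CPM in OVCAR3 KO and 7.06 CPM in OVCAR3 mock, and ZNF107 had 50.6 CPM in OVCAR3 KO and 11.9 CPM in OVCAR3 mock. ZNF138 had 24.7 CPM in OVCAR3 KO and 7.73 CPM in OVCAR3 mock. ZNF273 had 22.0 CPM in OVCAR3 KO and 5.42 CPM in OVCAR3 mock, and ZNF92 had 36.4 CPM in OVCAR3 KO and 10.9 CPM in OVCAR3 mock. In every one of the 5 the knockout library was above the mock library in SKOV3 too, by a median of 0.33 (0.06 to 0.49). With the GC and length trend removed these 5 stood between 1.01 (ZNF138) and 1.59 (ZNF680) in OVCAR3.

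Another such cluster lay on chromosome 19 at 21020657 to 21388582. ZNF738 (2.43), ZNF708 (2.00), ZNF714 (1.76) and ZNF431 (1.58) were at least 2-fold higher in OVCAR3 KO, and for ZNF738 the level rule had set the direction. ZNF430, at the start of the cluster, had 13.0 CPM in OVCAR3 KO and 11.4 CPM in OVCAR3 mock (0.19, -0.10 to 0.49), so the counts did not show a difference. The SKOV3 median of the 5 was 0.10, with ZNF708 lowest at -0.37 (-0.86 to 0.08).

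The largest clusters of chromosome 19 were less uniform. The 27 members at 57191500 to 58475436 had a median of 0.35 (4 higher, 1 lower) and the 22 at 51571283 to 53458261 one of 0.49 (1 higher, 0 lower). By contrast, none of the 8 members at 55476617 to 56160893 (ZNF628, ZNF579, ZNF524, ZNF865, ZNF581, ZNF580, ZNF787 and ZNF444) had a KRAB match, their median GC content was 65.4%, and 6 of the 8 were at least 2-fold lower in OVCAR3 KO, with a median of -1.17 (-1.42 to -0.22). With the GC and length trend removed 0 of these 8 were 2-fold lower, their median was -0.54, and 2 lay above 0. The 11 members at 149069641 to 150398630 on chromosome 7 held both extremes, with 6 lower, among them ZNF777 and ZNF282, and 2 higher, ZNF767P (2.05) and ZNF783 (1.505). With the trend removed 3 of the 11 were lower and 3 higher, and the 22 members named above had a median of 0.14. ZNF767P and ZNF746 (-1.21) share 50-base windows, 4.15% of those of ZNF767P, and their ratios lay on opposite sides.

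**Figure D5:**
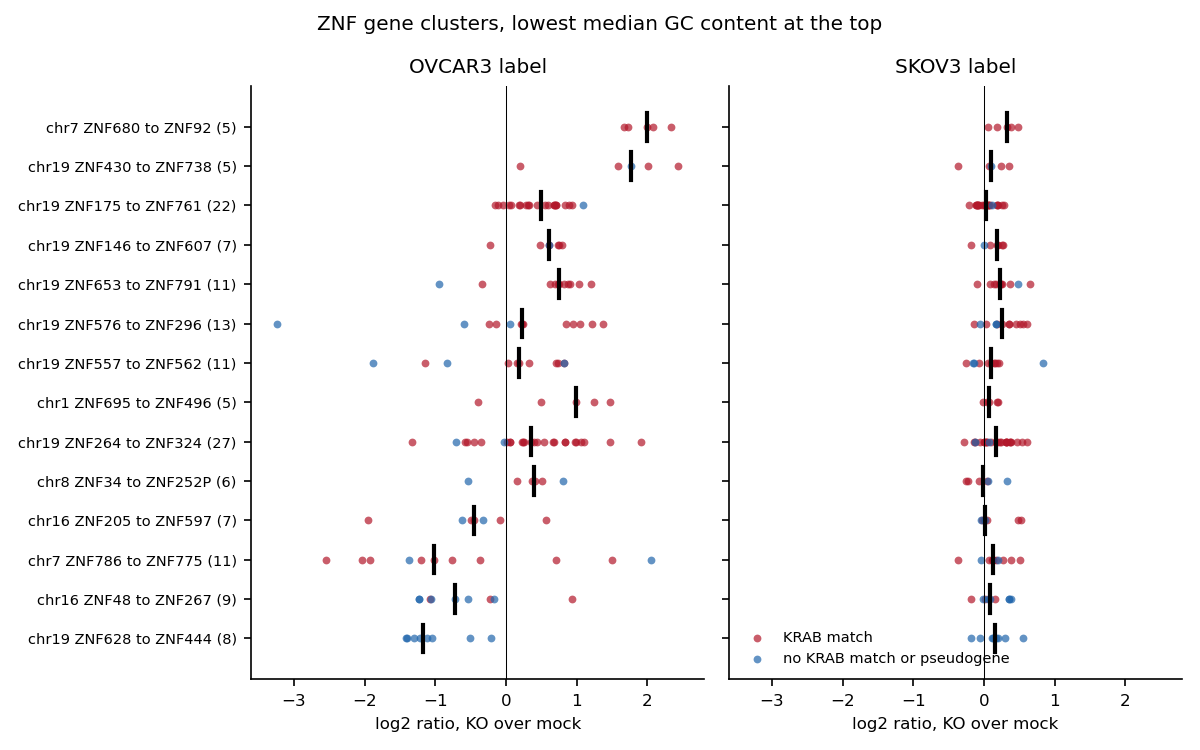
Log2 ratio of KO over mock of the members of the 14 ZNF clusters (number of members in brackets), ordered by median GC content with the lowest at the top, 1 point per gene and the cluster median as a black bar. In the OVCAR3 panel the medians run from 2.00 in the top cluster to -1.17 in the bottom one; in the SKOV3 panel the medians lie between -0.01 and 0.33.

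The promoter motif named above was counted in every window. It was chosen after the ratios and the sequences had been seen, so the counts are a description. CCAATCAG on either strand was present in 40 of 262 member promoters (15.3%), against 4.16% of all 27305 promoters, and in 2 or more copies in 17 members (6.49%), against 0.520% of all promoters. Of 8061 other coding genes under the level rule 4.89% held it, and 0.323% in 2 or more copies. In OVCAR3 the 17 members with 2 or more copies had a median ratio of 1.00, and all 17 lay above 0, between 0.19 (ZNF430) and 2.51 (ZNF519, whose direction the level rule had set). The 23 with 1 copy had a median of 0.67 and the 222 with none 0.27. Once the GC and length trend was removed the medians were 0.57 for 2 or more copies, 0.58 for 1 and 0.19 for none, so the grading between 1 copy and more was gone. The other 26 coding genes with 2 or more copies had a median of -0.49, with 9 above 0. GC content went with the motif, with a median of 37.5% in the 17, 43.1% in the 23 and 44.8% in the 222. Within the lowest GC group the 13 members with 2 or more copies had a median of 1.58, with 9 at least 2-fold higher, and the 52 with none had 0.74, with 14. In SKOV3 the 17 had a median of 0.18, with 16 above 0, and the 222 had 0.09. Many of the 17 stand in the same clusters and have related promoter sequences, so they are not separate observations.

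Of the other motifs, CCAAT went with the OVCAR3 ratio in the same direction, while CCGGAAG and GGGCGG differed less between the higher and the lower members. CCGGAAG was present in 43.1% of member promoters, 50.3% of KRAB member promoters and 10.7% of all promoters. In other coding genes under the level rule it was present in 20.3%. It was in 47.9% of the 48 windows of members at least 2-fold higher in OVCAR3 KO and 40.6% of the 32 of members at least 2-fold lower. GGGCGG, the GC box bound by SP factors, was in 58.3% of the higher and 65.6% of the lower members' windows, and in 44.6% of all promoters. Over all member promoters its share was 65.3%, below the 73.2% of other coding genes under the level rule. CCAAT alone, which every CCAATCAG contains, was in 62.5% of the higher and 31.2% of the lower, against 35.7% of all promoters. Of the promoters of other coding genes under the level rule 36.4% held it.

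Among ZNF genes described to bind retroelements, 7 of 9 on a list were members and 6 of the 7 were above 0 in OVCAR3, with a median of 0.89, 2 at least 2-fold higher (ZNF91 and ZNF417) and 0 lower, and for ZNF417 the level rule had set the direction. All 7 are KRAB genes of chromosome 19. Of the 97 such members 82 (84.5%) were above 0, so the 6 of 7 are near that share. At least 2-fold higher were 15.5% of the 97 and 7.25% of all symbols under the level rule. ZNF91 (chromosome 19, 23305004 to 23395471), which silences SVA elements, had 38.2 CPM in OVCAR3 KO and 13.3 CPM in OVCAR3 mock, a log2 ratio of 1.52 (1.30 to 1.76). In SKOV3 it had 11.8 CPM in KO and 9.21 CPM in mock (0.35, 0.06 to 0.65), so both knockout libraries lay above their mock. ZNF417 and ZNF587, near-identical neighbours described to bind HERV-K sequence, stood at 1.91 (1.55 to 2.35) and 0.99 (0.87 to 1.12) in OVCAR3. Of the 50-base windows of ZNF417, 37.7% occur in another zinc finger gene, so the split of reads between them is uncertain. ZNF765 was at 0.89, and ZNF611, the one member below 0, at -0.15. In SKOV3 the list's median was 0.18, with 0 past 2-fold.

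Genes of KRAB partner proteins lay on both sides of 0 in OVCAR3. On a list of 16 genes of KRAB cofactors and heterochromatin silencing 15 were measured, of which 1 was at least 2-fold higher in OVCAR3 KO and 4 lower, with a median of 0.10 and 9 of 15 above 0. These counts are near the background of 7.25% higher and 19.3% lower, and with the GC and length trend removed the median was -0.13 (0 higher, 3 lower). TRIM28, the corepressor itself, had 104 CPM in OVCAR3 KO and 623 CPM in OVCAR3 mock (-2.59, -2.67 to -2.51), and 603 CPM in SKOV3 KO and 565 CPM in SKOV3 mock. The maintenance DNA methyltransferase DNMT1 stood at -1.75 and MORC2, a HUSH partner, at -1.67, while the heterochromatin protein gene CBX3 stood at 1.05. With the GC and length trend removed TRIM28 stood at -1.75 and CBX3 at 0.49. In SKOV3 the list's median was -0.0034 with 0 past 2-fold.

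Members with roles outside DNA-binding repression were mixed. ZNF207 (BuGZ), a spindle and kinetochore protein, had 248 CPM in OVCAR3 KO and 108 CPM in OVCAR3 mock (1.198, 1.12 to 1.28). ZNF622, a factor of large ribosomal subunit assembly, had 19.9 CPM in OVCAR3 KO and 61.4 CPM in OVCAR3 mock (-1.62), and ZNF598, the ubiquitin ligase of collided ribosomes, had 26.0 CPM in OVCAR3 KO and 63.7 CPM in OVCAR3 mock (-1.29). ZNF593, also of ribosome assembly, was at -0.45 in OVCAR3. The 4 lay between 0.02 and 0.12 in SKOV3. Of 18 members with a SCAN domain (a dimerisation domain) on a list of 21, 2 were higher and 2 lower in OVCAR3, with a median of 0.0023 (0.32 with the trend removed, when 4 were higher and 1 lower). The higher were ZNF483 (1.73) and ZNF397 (1.06) and the lower ZNF213 (-1.95) and ZNF274 (-1.33), which recruits SETDB1 to the 3′ ends of ZNF genes. Of 16 listed chromatin and transcription regulators 15 were members, of which 1 was higher and 4 lower, with a median of -0.57, counts that are near the same background, the lower being ZNF503, ZNF335, ZNF687 (-1.69) and ZNF592 (-1.06), of which the last pair are partners in one complex.

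The 10 highest SKOV3 ratios belonged to genes of low level, with means between 4.93 and 17.9 CPM. ZNF358 (chromosome 19, 7513880 to 7521025) was highest, with 8.82 CPM in SKOV3 KO and 4.92 CPM in SKOV3 mock, a log2 ratio of 0.83 (0.47 to 1.22), and in OVCAR3 it had 8.76 CPM in KO and 15.6 CPM in mock (-0.83, -1.15 to -0.53). ZNF181 (0.71), ZNF554 (0.71), ZNF823 (0.66), ZNF469 (0.63), ZNF219 (0.62), ZNF530 (0.61), ZNF230 (0.61), ZNF346 (0.58) and ZNF224 (0.55) followed, all with counting intervals above 0. The lowest was ZNF333, with 7.55 CPM in SKOV3 KO and 10.7 CPM in SKOV3 mock (-0.50, -0.83 to -0.18). ZNF786 (-0.37), ZNF708 (-0.37), ZNF706 (-0.37), ZNF385B (-0.34), ZNF185, a LIM-domain actin protein in which no C2H2 finger was found (-0.32), ZNF692 (-0.32), ZNF800 (-0.31), ZNF330, a nucleolar protein (-0.28), and ZNF460 (-0.28) came next, and the interval of ZNF708 alone among these 10 reached above 0. ZNF469, ZNF823, ZNF181, ZNF346, ZNF224 and ZNF530 were above 0 in both lines, at 1.02, 0.90, 0.85, 0.53, 0.95 and 0.66 in OVCAR3. For ZNF224 and ZNF530 the level rule had set the direction in both lines.

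With the line as a block, edgeR's quasi-likelihood test over all 4 libraries asked whether the mean difference between KO and mock over both lines was 0. A large ratio in 1 line can move that mean, as in ZNF777, with a mean log2 ratio of -0.98 and a SKOV3 ratio of 0.50. The test called 0 members and 0 of 13670 genes (0%) at an adjusted p of 0.05, with 1 residual degree of freedom. At an unadjusted p below 0.05 were 3 members, ZNF680, ZNF273 and ZNF519, and 1.02% of all genes. The mean log2 ratios of edgeR over both lines were 1.37 (ZNF680), 1.26 (ZNF273) and 1.44 (ZNF519), each higher in KO in 2 of 2 lines, and edgeR's adjusted p was 0.956 for each. For ZNF519 the level rule had set that direction. DESeq2 and limma-voom also called 0 members, with 7 and 4 of the 310 at an unadjusted p below 0.05. Of all 13670 genes 412 (DESeq2) and 306 (limma-voom) were below it, so members were not more frequent there than genes at large. The labels do not say how cultures were kept apart, so such p-values cover only the spread among the 4 libraries sequenced.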

How the data were processed

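RNA-seq of 4 libraries, 1 per group, was analysed from the whole-number counts per gene that the authors deposited. Per the labels' protocols, Trizol served for RNA extraction and a NEBNext Ultra II Directional kit for the libraries. TopHat and GRCh38 are named, per the submitters' processing notes. For the read counter, its annotation and its use of strand, the tool and settings are not stated in these sources, so overlapping and antisense genes are uncertain. The deposited counts were not normalized. Totals, and the 3 counts taken as the floor for a gene with no count, are given for each library as unscaled CPM where used. The libraries carry no molecular identifiers that the sources mention, and intervals and floors therefore cover only counting error. No source says that libraries came from separate cultures.

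Of 58173 rows, the 8458 that share one of 2687 symbols were summed, giving 52402 symbols, and 88.5% of symbols matched RefSeq (GRCh38.p14), which gave coordinates and biotype. GC content and length are those of each gene's longest GENCODE transcript. Zinc fingers were counted by the C2H2 pattern, and a KRAB match needed an E-value of at most 0.001 against a profile of 199 KRAB sequences of 40 residues (pyhmmer 0.12.3).

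Log2 ratios of KO over mock used TMM factors from edgeR 4.0.16 (R 4.3.3) over 13670 genes with at least 1 CPM in at least 2 libraries, with a prior count of 2. A gene counted as higher or lower at 2-fold or more with at least 1 scaled CPM in either library of the pair. Each ratio has an exact 95% counting interval (Clopper-Pearson, scipy 1.17.1). No test was run within a line. Over both lines, edgeR's quasi-likelihood test with the line as a block was used, with Benjamini-Hochberg adjustment over all 13670 genes. DESeq2 1.42.0 and limma-voom (limma 3.58.1) were alternatives, as were other scalings, prior counts, level filters, fold limits and ratios from which a trend on GC content and log length (splines with 5 degrees of freedom) had been removed. The scripts were tested on simulated data.

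Named were the 10 highest and 10 lowest ratios per line, the 5 most abundant members, up to 4 genes of each list by size of the OVCAR3 ratio, and any member called over both lines or past 2-fold in both. Other genes, such as those of clusters, promoter sets and the SCAN and chromatin lists, were named after their values were seen. Members, lists, motifs and groupings were chosen with earlier results of these data known. The HERV-K119 provirus was not analysed here.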

Additional observations from a re-analysis of the deposited data

Results flagged for a closer look

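In 8 genes the ratio was at least 2-fold lower in OVCAR3 KO than in OVCAR3 mock, while in SKOV3 the KO library was above the mock library with a counting interval clear of 0. They were singled out because the lines lay on opposite sides of 0, and with 1 library per group the difference between the lines was not tested. The log2 ratios were -2.55 in OVCAR3 and 0.50 in SKOV3 for ZNF777, and -2.18 in OVCAR3 and 0.33 in SKOV3 for ZNF408, a gene of inherited retinal vessel disease. ZNF282 stood at -2.04 in OVCAR3 and 0.12 in SKOV3. ZNF213 stood at -1.95 in OVCAR3 and 0.48 in SKOV3. ZNF687 stood at -1.69 in OVCAR3 and 0.22 in SKOV3. ZNF274 stood at -1.33 in OVCAR3 and 0.31 in SKOV3. ZNF598 stood at -1.29 in OVCAR3 and 0.12 in SKOV3, and ZNF219 at -1.02 in OVCAR3 and 0.62 in SKOV3.

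Some ZNF symbols that missed the level rule, and so entered no comparison above, had higher OVCAR3 ratios than any member, and 5 of them are given here. ZNF117, which lies between ZNF273 and ZNF92 in the chromosome 7 cluster, had 14.7 CPM in OVCAR3 KO and 0.548 CPM in OVCAR3 mock, a log2 ratio of 4.48 (95% counting interval 3.797 to 5.90). ZNF154 had 15.1 CPM in OVCAR3 KO and 0.670 CPM in OVCAR3 mock, a log2 ratio of 4.28. ZNF321P stood at a log2 ratio of 3.43, ZNF789 at 2.998 and ZNF731P at 2.63 in OVCAR3. They reached 5 CPM in the OVCAR3 KO library alone, as did 17 of the 26 ZNF symbols that reached it in 1 library only. The level rule therefore left out genes from the high end of the OVCAR3 ratios. Genes that reach 5 CPM in OVCAR3 KO alone lie above the mock library by that choice, so their direction is no finding. The like share over all symbols is not given here. Of all symbols with at least 1 CPM in a library of the pair 22.5% were 2-fold higher in OVCAR3, against 7.25% under the level rule.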

How the results depend on the processing

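Of the 4 scaling alternatives, only factors taken over all rows, chosen after seeing the data, and column totals alone moved a median or count of the members past its limit. Over all rows the OVCAR3 median was 0.051, with 29 members higher, 0.13 on chromosome 19 and 0.00078 elsewhere, 0.54 in the lowest and -1.25 in the highest GC group, and 0.064 at high level. With column totals alone the OVCAR3 median was 0.23. With the GC and length trend removed, 15 members were lower in OVCAR3, and the medians were 0.27 in the lowest GC group, -0.17 in the highest and 0.048 at high level; the cause of the last was not tested. A level rule of 1 CPM gave 82 higher of 367 members in OVCAR3 and 2 in SKOV3. No level rule gave 95 higher of 465 and a median of 0.55 in OVCAR3, and 2 higher of 452 in SKOV3, as more genes entered. That median was 0.68 above that of other coding genes, but those were still held to the rule of 5 CPM, so the sets are unlike. Of all symbols with at least 1 CPM in a library of the pair, 22.5% were higher in OVCAR3 and 0.799% in SKOV3. A limit of 1.5-fold gave 121 higher in OVCAR3 and 8 in SKOV3, and 3-fold gave 18 higher and 14 lower in OVCAR3. No named ratio past 2-fold and none of these medians changed sign. Medians of other groups did with the trend removed, among them the 4th GC group (-0.25 to 0.35) and KRAB members of the highest GC group (-0.42 to 0.37). With the trend removed 10 of 122 named ratios changed sign, 3 of them with an interval clear of 0 (ZNF330 -0.30, ZNF800 -0.12 and ZNF786 0.29). So did 3 with factors over all rows (ZNF330 -0.12 among them). Of 122 ratios of named genes, 49 moved beyond their counting interval with the trend removed, 37 with factors over all rows and 9 with column totals; DESeq2 size factors, prior counts of 0.5 and 5 and leaving out mitochondrial rows moved 0. The test over both lines called 0 members in each of 7 alternatives. The test over both lines pairs libraries by line, and without the line it also called 0. Within a line, no paired analysis was possible because each group held 1 library, and none could be left out. Depth limits genes of low level: the SKOV3 interval of ZNF519 ran from -0.12 to 0.75.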

Other observations

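ZNF symbols that reached 5 CPM in a single library numbered 26, of which 17 did so in OVCAR3 KO, 5 in SKOV3 KO, 3 in OVCAR3 mock and 1 in SKOV3 mock. The same split over all symbols is not given here, so it is not read as a trait of ZNF genes. Counting intervals of the members lay above 0 in both lines for 41 and below 0 in both for 8. Line by line they lay above 0 for 171 members in OVCAR3 and 84 in SKOV3, and below 0 for 80 in OVCAR3 and 17 in SKOV3. The share of all symbols in both lines is not given here, so the 41 and the 8 do not show that the lines agree.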
